A study of Hemigymnus melapterus and Thalassoma lunare and Coris batuensis with 46 samples.

Results

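The 80 transcripts described here were the abundant transcripts whose levels differed least among the forebrains of 5 wrasse species. They were chosen from 280 transcripts with a total count of 700 or more, out of 26788 counted identifiers. For each of the 280, the mean share of tags in each species, as CPM (tags scaled to a common library total), was put on the scale log2(CPM + 10), and the range was the highest species value minus the lowest. The 80 with the smallest range, 28.6% of the 280, are called the members, and the remaining 200 are called the other abundant transcripts. The members were thus picked on the same species means that a comparison of species uses, so every value of a species difference among them is a description. Of the 26788 identifiers, 701 had counts high enough for the tests, and all 80 members were among them.

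The material was a forebrain slice of 300 µm from female fish, 1 library per fish, read by 3′ tag sequencing, in which a read stands for the polyadenylated end of a transcript. Facultative cleaners, which at times pick parasites from other fishes, were 8 Halichoeres melanurus, 9 Hemigymnus melapterus and 9 Thalassoma lunare. Non-cleaners were 9 Coris batuensis and 8 Labrichthys unilineatus. These 43 fish are the libraries the choice used, out of 46, and the labels give no age, treatment or batch. No species held both statuses, so status was repeated over species and never over fish. The time between capture and death was 6 to 28 minutes, with no value for single fish. The labels do not say whether fish of a species were caught together. The p-values set a difference or slope against the spread among these fish, taken as independent. If the fish were not independent, the p-values could be too small.

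The slice held Dl and Dm, parts of the fish pallium regarded as counterparts of the mammalian hippocampus and basolateral amygdala, with pieces of septum and striatum. Transcripts that most cells need at a steady level, such as those for ribosomes, energy metabolism and the cytoskeleton, are commonly among the most abundant and most alike between related animals, and they often serve as a yardstick for other transcripts. Gene names do not accompany the identifiers in the files, so no function is given to any member, and neither gene lists nor cell type markers could be applied to the slice. In a bulk slice, fewer cells of a type and less RNA per cell cannot be told apart. All species were counted on 1 set of identifiers, so how closely the sequence of a species fits a transcript enters its count, and its part in the values below was not tested.

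The libraries held 14800 to 53987 counts (median 33899), so 1 count was worth 18.5 to 67.6 CPM. At this depth a member had a median of 12.5 counts in the shallowest library, Coris batuensis 10, and of 64 in the library with the highest median. Of the members, 79 were seen in all 43 libraries, against 193 of the 200 other abundant transcripts. Since no molecular identifiers were named, copies made by PCR can inflate a count, and spread computed from counts covers counting error only. Levels are shares of tags, with no correction for length, since a transcript gives tags at its end only.

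The members took up almost the same portion of the counted tags in each species, which the rule brought about by keeping each member's species means close. Together they held 185304 of 1467167 counts, or 12.6%, while the other abundant transcripts held 33.0%. By species the members' share was 12.9% ± 0.314 in Halichoeres melanurus (SD, n = 8), 12.5% ± 0.662 in Hemigymnus melapterus (n = 9) and 12.7% ± 0.466 in Thalassoma lunare (n = 9), against 12.2% ± 0.490 in Coris batuensis (n = 9) and 12.4% ± 0.683 in Labrichthys unilineatus (n = 8). Single fish lay between 11.2% (Coris batuensis 10) and 13.8% (Hemigymnus melapterus 1), and the species means between 12.2% and 12.9%. The share of the other abundant transcripts was 32.9% ± 1.13, 34.9% ± 1.80 and 31.8% ± 0.673 in the facultative cleaners in the same order, against 32.5% ± 1.78 in Coris batuensis and 33.8% ± 1.42 in Labrichthys unilineatus.

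The ranges of the members ran from 0.10 to 0.65 on the log2 scale, with a median of 0.46 and quartiles of 0.38 and 0.57. The other abundant transcripts started where the members ended and had a median of 1.15. In no member was the highest species mean more than 1.57 times the lowest, and 9 members had a range below 0.3. The border was not a gap: ENSONIT00000019062.1 at 0.648 and ENSONIT00000011115.1 at 0.649 were the last members, and ENSONIT00000012981.1 at 0.654 and ENSONIT00000012330.1 at 0.660 were the first transcripts outside. Likeness did not go with high abundance alone, since the members' mean level spanned 478 to 8791 CPM with a median of 1122 CPM, and the other abundant transcripts had a median of 973 CPM.

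**Figure D1:**
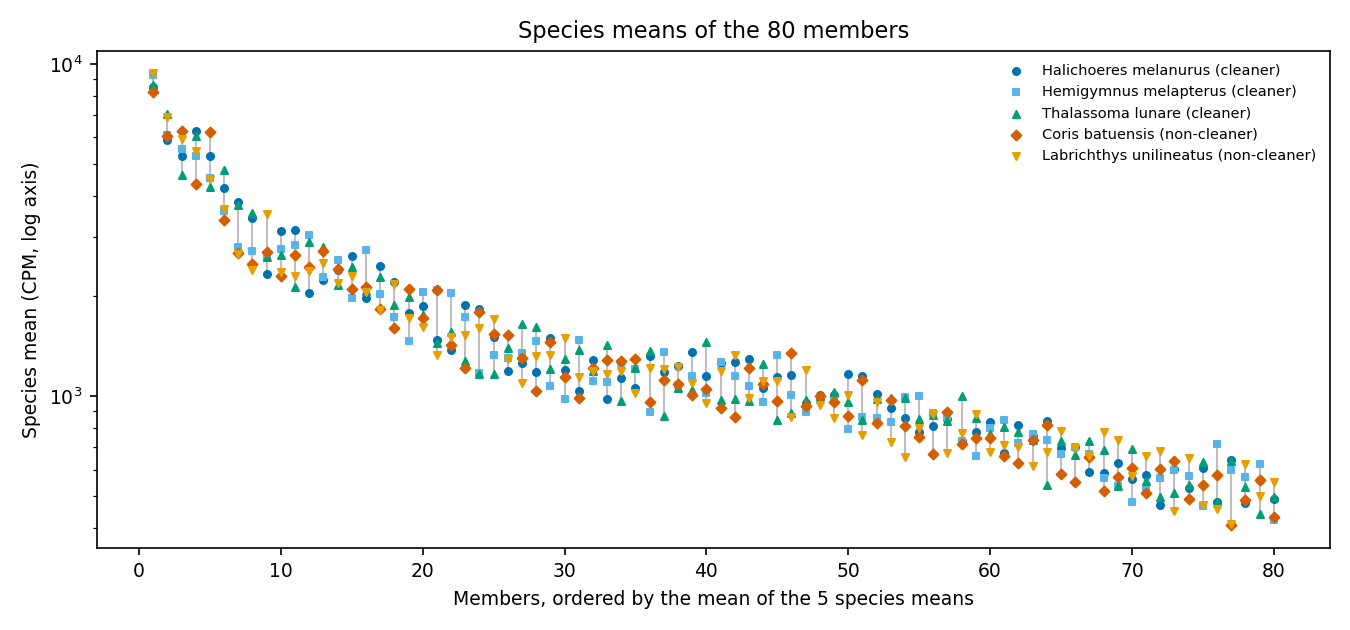
Mean CPM of each of the 80 members in the 5 species (vertical log axis), with members ordered along the horizontal axis by the mean of their 5 species means and a grey line joining the lowest and highest species. Levels span 478 to 8791 CPM between members, while the 5 points of a member are never more than 1.57-fold apart.

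The most abundant member was ENSONIT00000021045.1, with a mean of 8791 CPM and the second smallest range, 0.19. Its levels, given as lowest, median and highest fish, were 7168, 8158 and 10674 CPM in Halichoeres melanurus, 7861, 9268 and 11217 CPM in Hemigymnus melapterus and 7480, 8776 and 9512 CPM in Thalassoma lunare. In the non-cleaners they were 6843, 8285 and 9992 CPM in Coris batuensis and 8001, 9425 and 10576 CPM in Labrichthys unilineatus. All 5 groups of fish overlapped, and no species stood apart. Ranked among all transcripts of a species by mean CPM, it was 4th, 6th and 5th in the facultative cleaners and 5th in both non-cleaners, the smallest rank difference of any member.

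ENSONIT00000022338.1, the next in abundance with a mean of 6408 CPM, varied little among fish as well as among species. It averaged 5888 ± 372 CPM in Halichoeres melanurus, 6113 ± 499 CPM in Hemigymnus melapterus and 7055 ± 641 CPM in Thalassoma lunare, against 6061 ± 764 CPM in Coris batuensis and 6924 ± 893 CPM in Labrichthys unilineatus (SD, n as above). ENSONIT00000003962.1 averaged 5272 ± 765, 5528 ± 839 and 4634 ± 637 CPM in the facultative cleaners in that order, against 6282 ± 809 CPM in Coris batuensis and 5950 ± 1107 CPM in Labrichthys unilineatus. The fish of all species overlapped for both transcripts, in places narrowly. For ENSONIT00000022338.1 the highest Halichoeres melanurus fish had 6338 CPM and the lowest Thalassoma lunare fish 6321 CPM. For ENSONIT00000003962.1, only Thalassoma lunare 10 of its species, at 6074 CPM, reached the fish of Coris batuensis, the lowest of which had 5056 CPM. The next Thalassoma lunare fish had 4824 CPM. Both transcripts are among the members called below for a difference among species. ENSONIT00000003962.1 had its highest means in the non-cleaners and is also among those called by status, with a log2 difference of -0.32 (standard error over fish within species, 0.07).

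The smallest range of all, 0.10, belonged to ENSONIT00000003257.1, a member of middling abundance (984 CPM). It averaged 1006 ± 230 CPM in Halichoeres melanurus, 975 ± 192 CPM in Hemigymnus melapterus and 999 ± 159 CPM in Thalassoma lunare, against 1002 ± 182 CPM in Coris batuensis and 940 ± 231 CPM in Labrichthys unilineatus. The distance between species means was smaller than the standard deviation within any species, and single fish lay between 503 and 1324 CPM. These values rest on 9 to 61 counts per fish. ENSONIT00000022195.1 had the third smallest range, 0.21, with species means between 1113 CPM in Hemigymnus melapterus and 1284 CPM in Halichoeres melanurus.

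At the other end, ENSONIT00000019062.1 and ENSONIT00000011115.1 were only just alike enough to be members. ENSONIT00000019062.1 had lowest, median and highest values of 1210, 1541 and 3476 CPM in Halichoeres melanurus, 438, 1192 and 2221 CPM in Hemigymnus melapterus and 660, 949 and 2173 CPM in Thalassoma lunare. In the non-cleaners the values were 596, 1620 and 3373 CPM in Coris batuensis and 690, 1416 and 2797 CPM in Labrichthys unilineatus. All 5 groups overlapped widely, and fish of 1 species differed by several fold. ENSONIT00000011115.1 averaged 2088 ± 429 CPM in Hemigymnus melapterus and 2082 ± 721 CPM in Coris batuensis, and between 1328 and 1473 CPM in the other 3 species, so the pair with the higher means held 1 facultative cleaner and 1 non-cleaner.

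**Figure D2:**
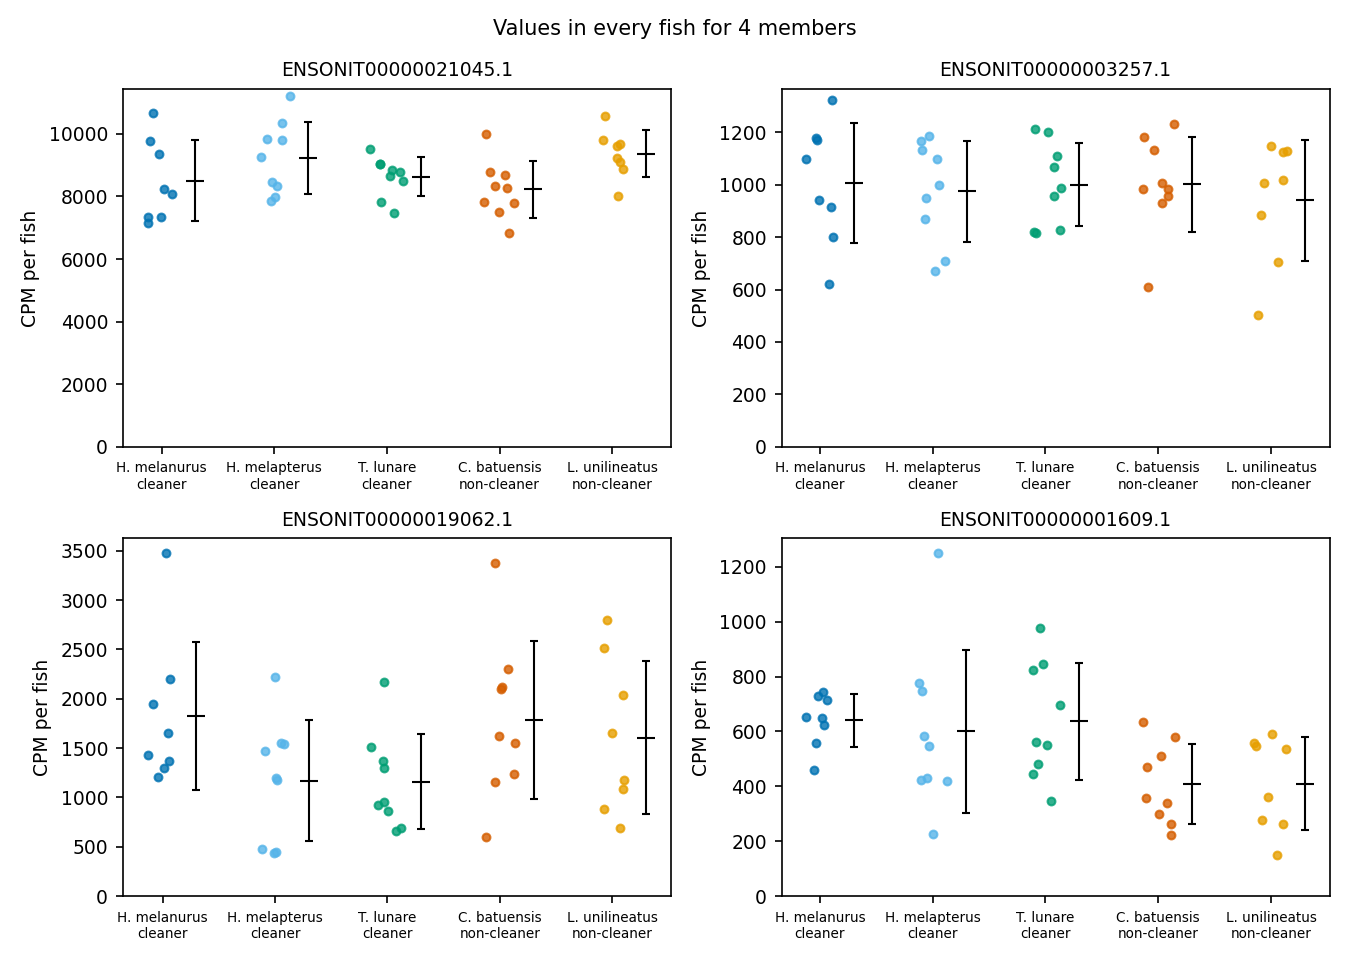
CPM in every fish (points) of the 5 species for 4 members, with the mean and SD of each species beside the points and a linear axis that starts at 0. ENSONIT00000021045.1 and ENSONIT00000003257.1 overlap in all species, ENSONIT00000019062.1 varies from 438 to 3476 CPM among fish, and ENSONIT00000001609.1 has lower means in both non-cleaners.

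The order of abundance was also much alike, but ranks came from the same species means that the rule kept close. The median member ranked 129.5 in Halichoeres melanurus, 136 in Hemigymnus melapterus and 138 in Thalassoma lunare, against 140.5 in Coris batuensis and 133 in Labrichthys unilineatus. Among the 50 most abundant transcripts of a species, 14 were members in every species but Labrichthys unilineatus, where 16 were. The rank of a member differed between its highest and lowest species by a median of 44.5 places, and by 123 places at most, in ENSONIT00000001609.1. No species carried the top values throughout: Halichoeres melanurus was the highest species for 22 members, Hemigymnus melapterus for 18, Thalassoma lunare for 16, Coris batuensis for 9 and Labrichthys unilineatus for 15. Coris batuensis was the lowest species for 23 members, against 19 in Labrichthys unilineatus and 11 to 14 in each facultative cleaner.

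Small species differences were still found in many members. In edgeR's quasi-likelihood test of any difference among the 5 species, with Benjamini-Hochberg adjustment over 701 transcripts, 44 of the 80 members (55%) had an adjusted p below 0.05, beside 82.6% of all tested transcripts and 197 of the 200 other abundant transcripts. The rule limited exactly this contrast, so nothing is read from the lower share. By level, calls were made in 13 of 17 members of at least 2000 CPM, 19 of 29 between 1000 and 2000 CPM and 12 of 34 under 1000 CPM. For the other abundant transcripts these counts were 37 of 37, 61 of 61 and 99 of 102.

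The comparison the series is named for sets facultative cleaners against non-cleaners. In that contrast 14 members had an adjusted p below 0.05 by the same test, 8 higher and 6 lower in facultative cleaners, beside 41.9% of all tested transcripts (18.1% higher and 23.8% lower). The members' log2 differences ran from -0.40 to 0.55 with a median of -0.02, and 38 were above 0 and 42 below. Their median size was 0.11, and that over all tested transcripts was 0.30. Again the rule fixed these differences to be small. The test and the standard errors of status differences use the spread among fish within species. Variation between species of the same status is not in them.

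The widest member by status, picked out after its values were seen, was ENSONIT00000001609.1. It averaged 641 ± 95.7 CPM in Halichoeres melanurus, 600.1 ± 298 CPM in Hemigymnus melapterus and 637 ± 212 CPM in Thalassoma lunare, against 408 ± 146 CPM in Coris batuensis and 410.2 ± 169 CPM in Labrichthys unilineatus. The status difference was 0.55 on the log2 scale, with a standard error over fish within species of 0.16. All 3 cleaner means lay above both non-cleaner means, but fish of the groups overlapped, from 226 to 1249 CPM in the facultative cleaners and from 148 to 634 CPM in the non-cleaners. ENSONIT00000001049.1, also named after its values were seen here, went the other way, with means of 471 to 567.5 CPM in the 3 facultative cleaners, against 602 and 684 CPM in the non-cleaners (log2 difference -0.38, standard error 0.11).

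Between single species, members with an adjusted p below 0.05 in edgeR's test were counted for all 10 pairs, each beside the percentage of all tested transcripts. Among facultative cleaners, Halichoeres melanurus differed from Hemigymnus melapterus in 18 members (45.4% of all) and from Thalassoma lunare in 15 (44.1%), and Hemigymnus melapterus differed from Thalassoma lunare in 22 (49.1%). Facultative cleaners differed from Coris batuensis in 15 members for Halichoeres melanurus (35.5%), 9 for Hemigymnus melapterus (38.2%) and 22 for Thalassoma lunare (51.8%). They differed from Labrichthys unilineatus in 11 members for Halichoeres melanurus (40.5%), 19 for Hemigymnus melapterus (45.8%) and 16 for Thalassoma lunare (49.4%). Coris batuensis and Labrichthys unilineatus differed in 16 members (41.5%). Pairs across the statuses held 9 to 22 called members and pairs within a status 15 to 22. In the 10 pairs the members' median absolute log2 difference lay between 0.15 and 0.24, and that over all tested transcripts between 0.40 and 0.54. These 10 pairs share species, and the rule bounded each of them.

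A measurement that the choice did not use was the level in a species left out of it. When 80 transcripts were chosen on 4 species and the fifth was then examined, 343 of 400 values (5 species, 80 transcripts each) lay within 0.5 of the mean of the other 4 on the log2 scale, against 487 of 780 for transcripts not chosen. The share within 0.5 was 92.5% in Halichoeres melanurus, 83.8% in Hemigymnus melapterus and 76.2% in Thalassoma lunare, against 90% in Coris batuensis and 86.2% in Labrichthys unilineatus. Among transcripts not chosen it was 67.3%, 60.6%, 57.8%, 64.8% and 60.9% in the same order. Transcripts alike in 4 species were thus within this limit more often in each left-out species than those that were not, with Thalassoma lunare the lowest for both.

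Likeness in 4 species did not secure it in the fifth. Among the 400 values, 8 were more than 1 below the other species and 1 was more than 1 above, and among the 780 values not chosen 65 were below and 32 above. The farthest was ENSONIT00000001475.1, 2.60 lower in Thalassoma lunare, followed by ENSONIT00000003740.1, at -2.55 in Halichoeres melanurus, and both were singled out after their values were seen. Coris batuensis had no chosen transcript past 1, and its farthest was at -0.85. Of the 80 members, 52 were chosen whichever species was left out. The others could also drop out because their counts in 4 species fell below 700, without any difference in level. The limit of 700 counts was applied over the other 4 species, so a transcript abundant only in the left-out species could not enter while one low only there could, and nothing is read from the excess of low values.

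**Figure D3:**
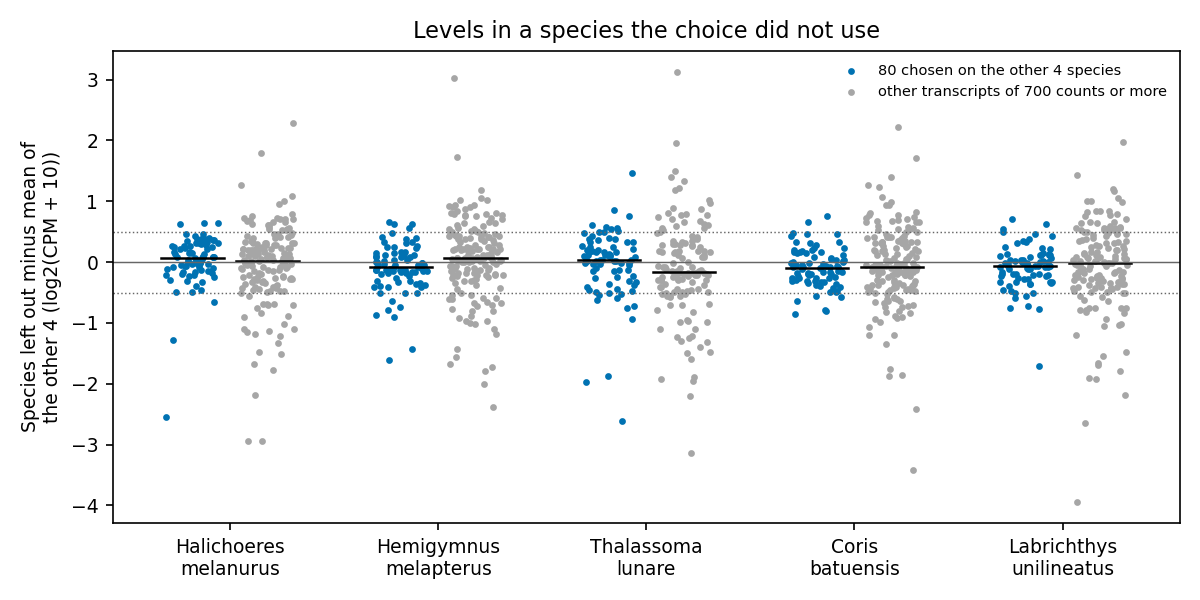
Level in the species left out minus the mean of the other 4 species (vertical axis, log2(CPM + 10)) for the 80 transcripts chosen on those 4 (blue) and the transcripts of 700 counts or more not chosen (grey), with black lines at the medians and dotted lines at 0.5 either side of 0. The blue points are more tightly gathered in all 5 species; the limit of 700 counts, set over the other 4 species, admits transcripts low in the left-out species but not those abundant only there.

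The 3 libraries that the choice left out gave a second set of values, with distances taken from each transcript's mean over species. The rule kept the species means of a member close to that mean. It thereby puts members nearer than the other abundant transcripts in further fish of these species. Nothing is read from the smaller distances of members, and the values only compare these libraries with the used ones. In Halichoeres melanurus 2 the members were a median of 0.19 away from their mean over species on the log2 scale, and the other abundant transcripts 0.45. In Thalassoma lunare 4 these distances were 0.24 and 0.36. Both lay in the span of the 43 used libraries, 0.17 to 0.46 for members and 0.34 to 0.64 for the others, whose highest values were both in Coris batuensis 10. Only 1 member was more than 1 from its mean in each of these libraries, or 1.25% of members, against 18.5% of the other abundant transcripts in Halichoeres melanurus 2 and 11% in Thalassoma lunare 4. The members' share of the counts was 14.1% in Thalassoma lunare 4, above the highest of the used libraries, 13.8%. In Halichoeres melanurus 2 it was 11.5%, below the lowest used fish of that species, 12.2%.

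Hemigymnus melapterus 4 was different. It held 6936 counts, in which 17 members were at 0 and the median member had 2 counts, and both members and other abundant transcripts were a median of 2.55 from their means. There 69 of the 80 members were more than 1 away, while their share of the counts, 10.6%, was below the lowest of the used libraries, 11.2%. The most abundant member, ENSONIT00000021045.1, had 8 counts (1153 CPM) in it, against 8440 CPM in Halichoeres melanurus 2 and 7965 CPM in Thalassoma lunare 4. By this median, members and other abundant transcripts were equally far from their usual levels in this library, where 1 count was worth 144 CPM. Their shares of the counts did not move alike. The other abundant transcripts held 54.6%, above the highest of the used libraries, 37.6%. Results below are given for the 43 used libraries unless stated.

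How much a member varied among fish of its own species was also outside the rule, although a large spread among fish widens the distance between species means. The biological coefficient of variation, the spread beyond counting error estimated by edgeR, had a median of 0.161 in members (0.109 to 0.433) and of 0.183 in the other abundant transcripts (0.114 to 0.819). Above 0.25 were 4 members (5%) and 28 of the others (14%). The total coefficient of variation of CPM within species had a median of 23.3% in members, of which counting alone would give 17.0%, against 26.5% and 19.9% in the others. Spread was more than 2 times that of counting in 3 members (3.75%) and 28 others (14%), and below that of counting in 6 members and 7 others.

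ENSONIT00000019062.1 varied most among fish, with a biological coefficient of variation of 0.433, and its CPM within species had 3.11 times the spread of counting alone. Next came ENSONIT00000008792.1 at 0.314, whose species means lay between 590 and 733 CPM while single fish of Hemigymnus melapterus ran from 192 to 1421 CPM. Its range among species was 0.31, so species means stayed close although the fish did not. The lowest values were 0.109 in ENSONIT00000001049.1 and 0.111 in ENSONIT00000022338.1, the second most abundant member. For ENSONIT00000001049.1 the estimate was 0.0703 with all 46 libraries, and its spread of CPM within species, 20.4%, was below the 23.9% of counting alone.

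**Figure D4:**
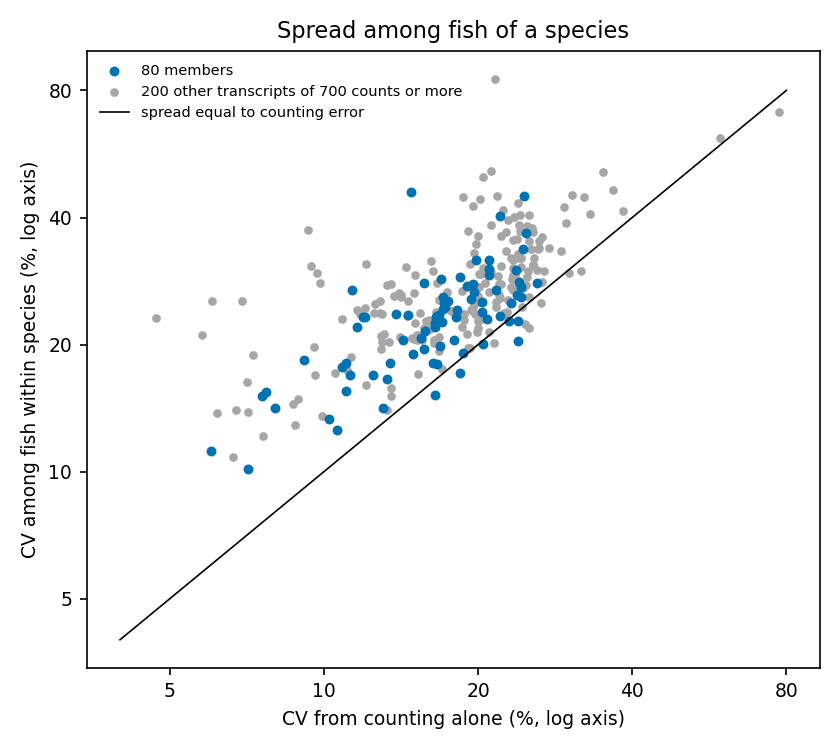
Coefficient of variation of CPM among fish within species (vertical log axis, %) against that expected from counting alone (horizontal log axis, %) for the 80 members (blue) and the 200 other abundant transcripts (grey), with the line of equality. Most points lie above the line, and the members have a median of 23.3% against 17.0% from counting.

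After adjustment, few members were called for a slope on a measure of the library, at shares near those over all tested transcripts. The model for this held 1 level per species and slopes on total reads and on the assigned share, which is the portion of reads counted in transcripts, both within species. In edgeR's quasi-likelihood test, 18 of 80 members and 98 of 701 tested transcripts had an unadjusted p below 0.05 for total reads, a higher share in members. For the assigned share these counts were 17 and 141. With Benjamini-Hochberg adjustment over 701 transcripts, the slope on total reads had an adjusted p below 0.05 in 1 of 80 members (1.25%). This was beside 1.14% of all tested transcripts and 3% of the other abundant transcripts. The member was ENSONIT00000016468.1, which rose by 0.68 on the log2 scale per doubling of reads (standard error 0.14, adjusted p = 0.00181), beside 0.428% of all tested transcripts with a rise. It had 1081 CPM in Coris batuensis 10, the library with the fewest reads (287241), against 2152 to 3815 CPM in the other 8 fish of that species. In Hemigymnus melapterus it had 1038 CPM at the fewest reads (370986) and 3268 CPM at the most (831709). For the other species, the fish with the fewest and most reads are given as log2(CPM + 10) minus the species mean. These were -0.49 and 0.29 in Labrichthys unilineatus, and 0.08 and 0.22 in Thalassoma lunare. In Halichoeres melanurus they were 0.03 (357646 reads) and -0.09 (916956 reads), so no rise was seen between those fish. The call held without any 1 of the 43 libraries, with slopes from 0.59 to 0.79. The lowest slope came without Coris batuensis 10, where the adjusted p was 0.0441 in the same edgeR test.

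The slope on the assigned share had an adjusted p below 0.05 in 5 members (6.25%), 1 above 0 and 4 below. Over all tested transcripts the share called was near this, 6.13% (1.71% above and 4.42% below). Among the other abundant transcripts it was higher, 12.5% (25 of 200). The numerator of the assigned share is the sum of the same transcript counts, so this measure is not independent of the levels. The assigned share spanned only 4.38% to 5.46% and differed by at most 1.16-fold within a species, so slopes, which are per doubling, reach beyond what was observed. ENSONIT00000022661.1 had the steepest, -4.25 (standard error 1.02, adjusted p = 0.00824). In Coris batuensis it had 1586 CPM in the fish with the lowest share and 616 CPM in the fish with the highest. The call held without any 1 of the 43 libraries, with slopes from -4.70 to -3.90, but the slope was 1.27 with all 46 libraries, and Hemigymnus melapterus 4 had 7209 CPM of it (50 counts).

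The other 4 slopes on the assigned share were less firm. ENSONIT00000021906.1 had a slope of -2.72 (standard error 0.88, adjusted p = 0.0485), ENSONIT00000008674.1 of -2.20 (0.65, 0.0335), ENSONIT00000003962.1 of -1.92 (0.57, 0.0335) and ENSONIT00000003620.1 of 3.03 (0.94, 0.0382) in the same edgeR fit. Leaving out a single library ended the call in 20, 5, 7 and 11 of 43 cases for these transcripts. Halichoeres melanurus 9, Labrichthys unilineatus 1, Labrichthys unilineatus 2 and Labrichthys unilineatus 8 were among these for all 4.

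Finally, members were examined for moving together among fish. Each value was log2(CPM + 10) minus the mean of its species, over 43 fish, and the p of a correlation came from 100000 permutations of fish within species, adjusted by Benjamini-Hochberg over all 39060 pairs of the 280 abundant transcripts. Of 3160 pairs of members, 69 (2.18%) had an adjusted p below 0.05, 41 positive and 28 negative, beside 2.92% of all pairs (1.82% positive and 1.11% negative) and 3.22% of pairs among the other abundant transcripts. The median correlation of member pairs was 0.03, with 90% of them between -0.32 and 0.40. Most pairs of members were thus not called, at a share not far from that over all pairs. The weakest called correlation between members was 0.44 in size, so weaker joint variation could go uncalled. A called pair with another member was found for 35 of the 80 members. Of the 200 other abundant transcripts, which had more partners to pair with, 141 were in a called pair among themselves. Values are shares of 1 total and share a library's depth, and with total reads and assigned share removed 9 member pairs passed, while without Coris batuensis 10 there were 19.

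The pairs with the strongest correlations, named after their values were seen, joined a few members. ENSONIT00000016468.1 and ENSONIT00000002933.1 had r = 0.73 (permutation p = 2e-05, adjusted p = 0.00685) and Spearman's rho = 0.58 (permutation p = 0.00012). Here and below, the 2 farthest fish are those farthest from the median of the first-named transcript, whatever their value of the second. Without them, here Coris batuensis 10 and Hemigymnus melapterus 5, r was 0.54. By species r was 0.74, 0.49 and 0.84 in the facultative cleaners, against 0.88 in Coris batuensis and 0.84 in Labrichthys unilineatus. ENSONIT00000016468.1 is the member that rose with reads, and r was 0.63 with the library measures removed. Those 2 fish carried much of the relation in their own species, since r was -0.10 in Hemigymnus melapterus without fish 5 and 0.32 in Coris batuensis without fish 10.

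ENSONIT00000002893.1 and ENSONIT00000008674.1 varied in opposite directions, with r = -0.67 (permutation p = 1e-05, the smallest that these permutations can give, adjusted p = 0.00449) and rho = -0.64 (permutation p = 3e-05). By species r was -0.86, -0.55 and -0.84 in the facultative cleaners, against -0.65 in Coris batuensis and -0.74 in Labrichthys unilineatus. The weakest r on leaving out 1 fish was -0.75, -0.41 and -0.51 in the facultative cleaners in the same order. It was -0.45 in Coris batuensis and -0.67 in Labrichthys unilineatus. Over all species r was -0.60 without the 2 farthest fish. With the library measures removed r was -0.52, and ENSONIT00000008674.1 is among the members called above for a slope on the assigned share. It was in 16 of the 69 called pairs, the most of any member. ENSONIT00000021045.1, the most abundant member, ran against ENSONIT00000006249.1 with r = -0.65 (permutation p = 4e-05, adjusted p = 0.00863) and rho = -0.65 (permutation p = 3e-05), and r was -0.66 both without the 2 farthest fish and with the library measures removed. That pair was negative in all 5 species, from -0.77 in Labrichthys unilineatus to -0.34 in Thalassoma lunare, where r was -0.11 without fish 8.

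ENSONIT00000020844.1 was in 13 called pairs. With ENSONIT00000001083.1 it had r = 0.69 (permutation p = 1e-05, adjusted p = 0.00449) and rho = 0.71 (permutation p = 1e-05), and r was 0.66 without the 2 farthest fish and 0.57 with the library measures removed. Those 2 fish were Hemigymnus melapterus 5 and Labrichthys unilineatus 1. Coris batuensis 10, at -1.53 from its species mean in ENSONIT00000001083.1, was not among them, and r was 0.67 without that fish alone. ENSONIT00000020844.1 and ENSONIT00000015216.1 had r = 0.66 (permutation p = 0.00034, adjusted p = 0.0239) and rho = 0.72 (permutation p = 2e-05), but by species r ran from 0.18 in Thalassoma lunare to 0.96 in Labrichthys unilineatus. Single fish moved the low values in both directions. In Hemigymnus melapterus r was 0.26, and it was 0.78 without fish 6 and 0.18 without fish 10. In Thalassoma lunare r was 0.54 without fish 10 and 0.08 without fish 3. In Halichoeres melanurus r was 0.34, and leaving out 1 fish gave 0.14 to 0.55.

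**Figure D5:**
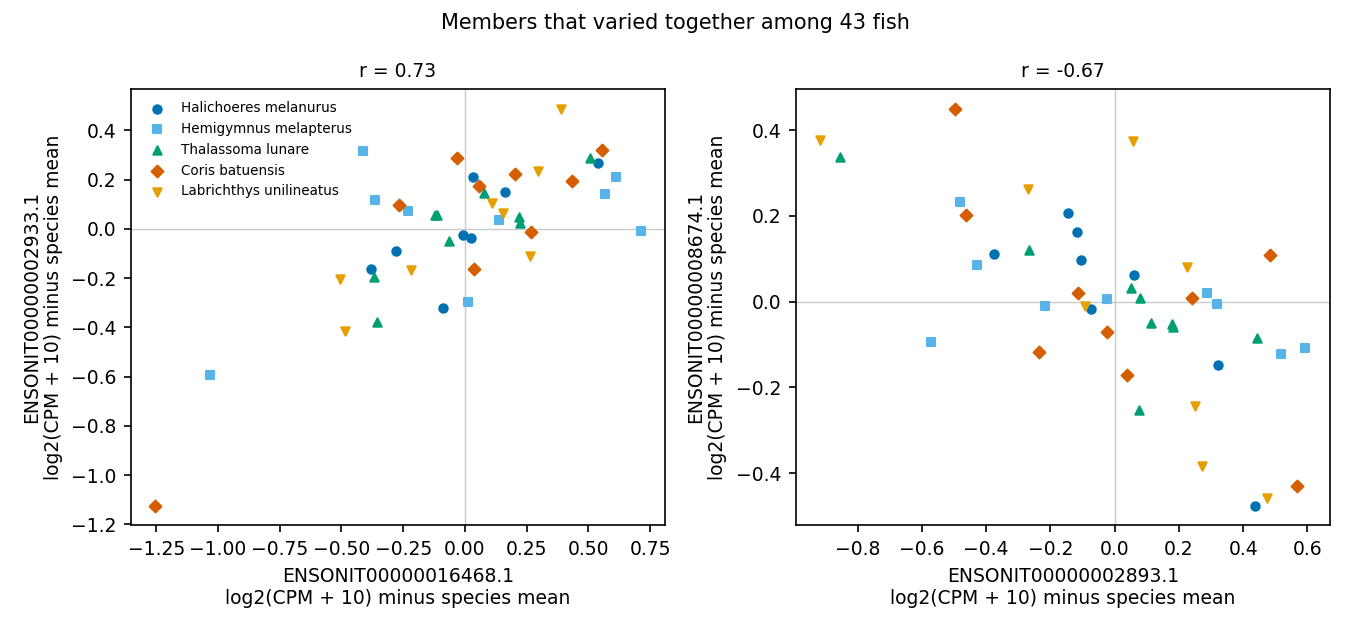
Values of 2 pairs of members in 43 fish, each axis log2(CPM + 10) minus the mean of the fish's species, with colours and symbols for the 5 species. The left pair runs together with r = 0.73, with Coris batuensis 10 at the lower left, and the right pair runs in opposite directions with r = -0.67.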

How the data were processed

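The authors deposited, for each of 46 fish, raw read counts per transcript, which are whole numbers and not normalized, judging from the values. Cutadapt 2.8, BWA and SAMtools are listed in the submitters' processing notes. Which reference and counter were used is not given in the sources used here. Counts on 26788 identifiers were used, and the unnamed line held 0 counts. Total reads came from a second deposited count table of the same fish, in which 95.2% of reads stood on lines that name no gene. Those lines entered total reads only.

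The members and lists were chosen with earlier results of these data known. The rule left out Thalassoma lunare 4, Halichoeres melanurus 2 and Hemigymnus melapterus 4, and its total count was taken over the 43 other libraries. CPM of single fish is over all counted identifiers. Tests used R 4.3.3, edgeR 4.0.16 (filterByExpr, minimum count 10, minimum total count 15, TMM, quasi-likelihood) with limma 3.58.1, and were tested on simulated data. DESeq2 1.42.0 was an alternative. Descriptions and permutations used Python 3.11.15, numpy 2.4.6, pandas 2.3.3 and scipy 1.17.1. Permutations of pairs, leaving out each library, also within species for the named pairs, and the choice over 46 libraries were added after seeing the data.

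Named were the 3 members with the highest mean, the 3 with the smallest range, the 2 last inside, the 2 with the highest and the 2 with the lowest biological coefficient of variation, and up to 2 per direction of each slope. None of 190 library pairs within species held identical values, and the highest chi-square p, over transcripts with at least 20 counts, was 8.61e-09, so each fish counted once.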

Additional observations from a re-analysis of the deposited data

Results flagged for a closer look

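In 70 groups (the 13 named members and the members' share of counts, each in 5 species), 6 had 1 fish set apart from the rest by Dixon's criterion, which chance meets in about 1 group in 20. ENSONIT00000003962.1 had 6074 CPM in Thalassoma lunare 10, with the next fish at 4824 CPM. ENSONIT00000019062.1 had 3476 CPM in Halichoeres melanurus 8, with the next at 2206 CPM. ENSONIT00000003620.1 had 1483 CPM in Hemigymnus melapterus 7, with the next at 953 CPM.

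Coris batuensis 10, the shallowest used library, was set apart in both directions. It was lowest of its species for ENSONIT00000003257.1 at 608 CPM, which is 9 counts, with the next at 932 CPM. It was highest for ENSONIT00000011115.1 at 3784 CPM, with the next at 2379 CPM. The share of counts in members was 12.2% in Halichoeres melanurus 6, with the next fish of that species at 12.8%. The cause of these single values was not tested.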

How the results depend on the processing

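The choice of members depended on the count limit: with a minimum total of 350 or of 1400, 50 of the 80 were chosen again, and the median range was 0.60 at 1400 and 0.59 on the second table's identifiers (main 0.46). Transcripts tested numbered 701 in the main setting, 25207 with no filter and 280 at 700 counts. They numbered 720 with 46 libraries and 691 without Coris batuensis 10, so counts called are to be read against these. Members with any species difference numbered 27 with all 46 libraries (main 44), beside 551 of 720 transcripts. Over all transcripts they numbered 5345 of 25207 with no filter and 242 of 280 among those of 700 counts or more (main 579 of 701). Members called by status numbered 4 with no filter and 6 with 46 libraries (main 14). All transcripts numbered 978 of 25207 with no filter, 122 of 280 at 700 counts and 269 of 720 with 46 libraries (main 294 of 701). For total reads, members numbered 37 with no filter and 6 with 46 libraries (main 1). All transcripts numbered 132 with no filter, 22 with 46 libraries, 4 without Coris batuensis 10, 18 with DESeq2 (190 with no adjusted p) and 5 with reads as the lone slope (main 8). For the assigned share, members numbered 0 in edgeR with no filter (17 at an unadjusted p under 0.05, and 7 called by DESeq2 with the filter), 9 at 700 counts, 10 with 46 libraries and 1 with the share as the lone slope (main 5). All transcripts numbered 17 with no filter, 45 at 700 counts, 56 with 46 libraries and 10 with the lone slope (main 43). Scaling by library total alone gave 19 above and 18 below 0 (main 12 and 31). Member pairs numbered 9 with library measures removed and 19 without Coris batuensis 10 (main 69), and pairs of the 280 numbered 211 and 416 (main 1142). With 46 libraries, the slopes on the assigned share of ENSONIT00000021906.1 and ENSONIT00000022661.1 turned to 0.63 and 1.27. Among the libraries added there, Hemigymnus melapterus 4 had an assigned share of 8.00% and 86674 reads. In the 43 used libraries the assigned share was 4.38% to 5.46%, and the fewest reads were 287241. The causes were not tested.

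Leaving out each library in turn gave 1 to 5 members and 4 to 24 transcripts for total reads, and 1 to 8 members and 8 to 61 transcripts for the assigned share. Member counts for reads moved most without Halichoeres melanurus 7 (5) and Halichoeres melanurus 5 (2), and for the share without Halichoeres melanurus 7 (8), Hemigymnus melapterus 2 (3), Coris batuensis 3, Labrichthys unilineatus 4 and 5 (2 each), and Halichoeres melanurus 9 and Labrichthys unilineatus 1, 2 and 8 (1 each). Sample numbers recur across species, and the labels do not say what they stand for. Same-numbered fish did not deviate together (73 pairs, r from -0.26 to 0.21, 3 over 0.1, with 1 of 43 libraries closest to its own number). These correlations cannot tell whether same-numbered fish shared a capture or processing round, so nothing is concluded about it. With the replicate block, 43 members and 572 transcripts were called for any difference, 12 and 281 for status, 4 transcripts for reads, and 1 member and 13 transcripts for the share. Depth limits the members under 1000 CPM most, since 1 count is worth up to 67.6 CPM.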
